A study of Homo sapiens with 16 samples.

Results

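The genes described here are relatives of FTO, the m6A demethylase, that use iron and 2-oxoglutarate as FTO does. FTO itself and ALKBH5 were left out. The list held 38 genes by name, in 10 families, and all 38 had an entry among the 26830 of the deposited expression table. They were followed in NOMO-1, an established human acute myeloid leukaemia cell line of monocytic type, by sequencing of poly(A)-enriched RNA in 16 libraries. Of these, 4 libraries came from cells given DMSO, the solvent control, 3 from cells given CS1 at 100 nM and 3 from cells given CS2 at 500 nM, each for 72 hours. Both compounds are described by the submitters as FTO inhibitors, and their doses differ. A further 3 libraries came from cells carrying the control hairpin shNS and 3 from cells carrying shFTO, a hairpin against FTO. The hairpins were delivered by lentivirus and the cells selected with puromycin at 1 µg/ml for 1 week, so the shNS control carries a virus and a selection that the DMSO control does not. The series is described as having at least 3 biological replicates a group; what the replicates shared (culture, passage, day) is not given in the sources used here, so p-values measure the spread between these libraries. The number of the hairpin's target sequences and clones is likewise not given there.

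Enzymes of this superfamily bind ferrous iron and split 2-oxoglutarate with molecular oxygen, and so oxidise a substrate while releasing succinate and carbon dioxide. Several AlkB homologues take alkyl groups off DNA or RNA, TET enzymes oxidise 5-methylcytosine, and many JmjC proteins take methyl groups off histone lysines. EGLN enzymes and HIF1AN hydroxylate the hypoxia-inducible factor subunits, and prolyl, lysyl and aspartyl hydroxylases act on proteins in the endoplasmic reticulum. In myeloid leukaemia the group is best known for TET2, which is recurrently mutated, and for its inhibition by 2-hydroxyglutarate from mutant isocitrate dehydrogenase. Only messenger RNA was measured here; enzyme activity, substrates and m6A were not.

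Among the 38 genes, 35 passed the filter of at least 1 TPM in at least 3 libraries. TPM is a transcript abundance that is corrected for length and sums to 1000000 in each library. The 3 genes that did not pass were EGLN3, P4HA2 and PLOD2, whose highest values were 0.05, 0.19 and 0.04 TPM. They were listed above 0 in 8, 14 and 1 of the 16 libraries. Counts below are over the 35 genes tested.

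Under both compounds and under the FTO hairpin, ALKBH2 was lower, and TET2 and P4HA1 higher. The call of P4HA1 with CS1 was lost under the 3 rescalings described below and without CS1 replicate 2. The promoter sequences of these 3 genes are shown as examples of that pattern. Each is the 250 bases before a RefSeq start site, read 5′ to 3′ along the gene (GRCh38.p14); of the 2 starts that RefSeq lists for TET2, the upstream one is shown. They are chr12:109093473-109093722 on the minus strand for ALKBH2, chr4:105145625-105145874 on the plus strand for TET2, and chr10:73096867-73097116 on the minus strand for P4HA1. Capitals mark ACGTG or GCGTG on either strand, the core of the element that hypoxia-inducible factors bind, and in TET2 the palindrome CACGTG, the E-box, which holds ACGTG on both strands.
ALKBH2: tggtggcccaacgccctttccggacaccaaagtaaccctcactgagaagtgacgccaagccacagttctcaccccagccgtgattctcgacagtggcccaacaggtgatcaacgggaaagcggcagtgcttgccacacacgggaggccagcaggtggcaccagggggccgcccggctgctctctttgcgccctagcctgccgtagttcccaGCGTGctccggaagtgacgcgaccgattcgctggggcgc
TET2: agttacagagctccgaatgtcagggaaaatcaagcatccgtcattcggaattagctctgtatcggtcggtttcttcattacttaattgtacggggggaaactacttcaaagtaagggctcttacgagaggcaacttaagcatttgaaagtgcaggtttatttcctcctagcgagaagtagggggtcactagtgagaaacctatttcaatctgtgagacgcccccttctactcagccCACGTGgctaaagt
P4HA1: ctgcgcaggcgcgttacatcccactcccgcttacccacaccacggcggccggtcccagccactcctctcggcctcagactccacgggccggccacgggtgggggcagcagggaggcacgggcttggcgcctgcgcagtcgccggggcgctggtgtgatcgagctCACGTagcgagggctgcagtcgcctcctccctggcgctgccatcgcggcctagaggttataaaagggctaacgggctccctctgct
The capitals begin 39 bases before the start in ALKBH2, 14 in TET2 and 86 in P4HA1. Over all members, 36 of 38 had a window in the RefSeq table, and 25 of the 36 (69.4%) held the core in at least 1 window, against 47.4% of 27305 genes. CACGTG stood in 7 of 36 (19.4%), against 7.7% of those genes, in TET2, TET3, JMJD1C, KDM4B, KDM4C, KDM6A and EGLN2. A share over genes grows with the number of windows a gene has. Counted by window, the core stood in 57.7% of the members' windows against 43.2% of all, and CACGTG in 13.5% against 6.3%. The members' windows were also richer in G and C, with a median GC content of 64.4% over 52 windows against 58.0% over 35116, and a median of 19 CG pairs against 11. The parts of base composition and window number in the motif shares were not tested, and a match of letters is no measurement of binding.

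FTO was the check of the labels. Its level was 31.27, 30.82 and 32.79 TPM in the shNS libraries and 8.12, 7.49 and 8.35 TPM in the shFTO libraries, a log2 fold change of -1.86 (SE 0.060, adjusted p = 7.38e-12). Under the compounds FTO was 34.1 ± 2.43 TPM with CS1 and 34.2 ± 1.02 with CS2 (SD, n = 3 each), against 31.6 ± 1.82 with DMSO (SD, n = 4), and neither difference passed the test (adjusted p = 0.141 and 0.0936). With CS2, FTO was called lower under median and median ratio scaling (-0.12 in both, adjusted p = 0.0263 and 0.0357). Libraries of 1 group correlated at 0.9877 to 0.9930 and libraries of different groups at 0.9090 to 0.9805 (Pearson's r of log2(TPM + 1) over the genes tested), and no library stood apart from its group. A library listed 18675 to 19358 entries above 0. Of 12 myeloid markers 10 passed the filter, while CD14 and MPO were under 1 TPM in every library. The markers' summed level moved with the groups: 814 to 829 TPM with DMSO, 1233 to 1285 with CS1, 1360 to 1407 with CS2, 992 to 1020 with shNS and 3289 to 3865 with shFTO. Of the 10 tested, 9 rose and 1 fell with each compound, and 7 rose and 2 fell with the hairpin. Over all genes, 37.5% rose and 14.3% fell with CS1, 49.5% and 24.6% with CS2, and 31.9% and 24.5% with the hairpin. The rise of the sum with the hairpin was mostly LYZ, the lysozyme gene, at 163 TPM with shNS and 2226 with shFTO, while the transcription factor gene CEBPA was lower with CS2 (186 against 303 TPM) and with shFTO (218 against 253), and SPI1 with shFTO (118 against 129). Markers of other lineages showed CD3E, HBA1, GP9, KRT19 and LUM at 0 in every library, and NKG7, a gene of cytotoxic lymphocyte granules, at 266 TPM with DMSO, 471 with CS1, 433 with CS2, 454 with shNS and 240 with shFTO. The part of these marker shifts in the results below was not tested, and in bulk RNA fewer cells of a type and less RNA per cell cannot be told apart.

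The 35 genes covered a wide range in untreated cells. PLOD1 (79.3 ± 3.26 TPM), PLOD3 (73.2 ± 1.78), EGLN2 (69.7 ± 1.94), KDM5C (65.6 ± 1.45) and KDM3B (52.8 ± 2.42) were the 5 above 50 TPM with DMSO (SD, n = 4). PLOD1 is a lysyl hydroxylase of procollagen, and KDM5C an H3K4 demethylase. A further 26 lay between 5 and 50 TPM, and TET1 (1.45 ± 0.398), KDM7A (3.78 ± 0.480), TET2 (4.49 ± 0.525) and KDM8 (4.55 ± 0.314) were under 5; the SDs of KDM7A, TET2 and KDM8 span the gaps between them. The median member stood at 21.0 TPM against 15.2 over all 14951 genes tested. The members summed to 933 ± 21.4 TPM with DMSO (SD, n = 4), 1074 ± 23.8 with CS1 and 1088 ± 23.8 with CS2, and to 937 ± 8.66 with shNS and 1085 ± 27.6 with shFTO (SD, n = 3 each). No library of a treated group fell within the range of its control: the lowest sums were 1048, 1060 and 1065 TPM with CS1, CS2 and shFTO, and the highest were 951 with DMSO and 946 with shNS. After median ratio scaling, which divides each library by its median ratio to a reference, this did not hold for CS2: its scaled sums of 934 to 975 overlapped those with DMSO (940 to 979). The scaled sums were 996 to 1017 with CS1, and 1080 to 1124 with shFTO against 998 to 1019 with shNS.

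**Figure D1:**
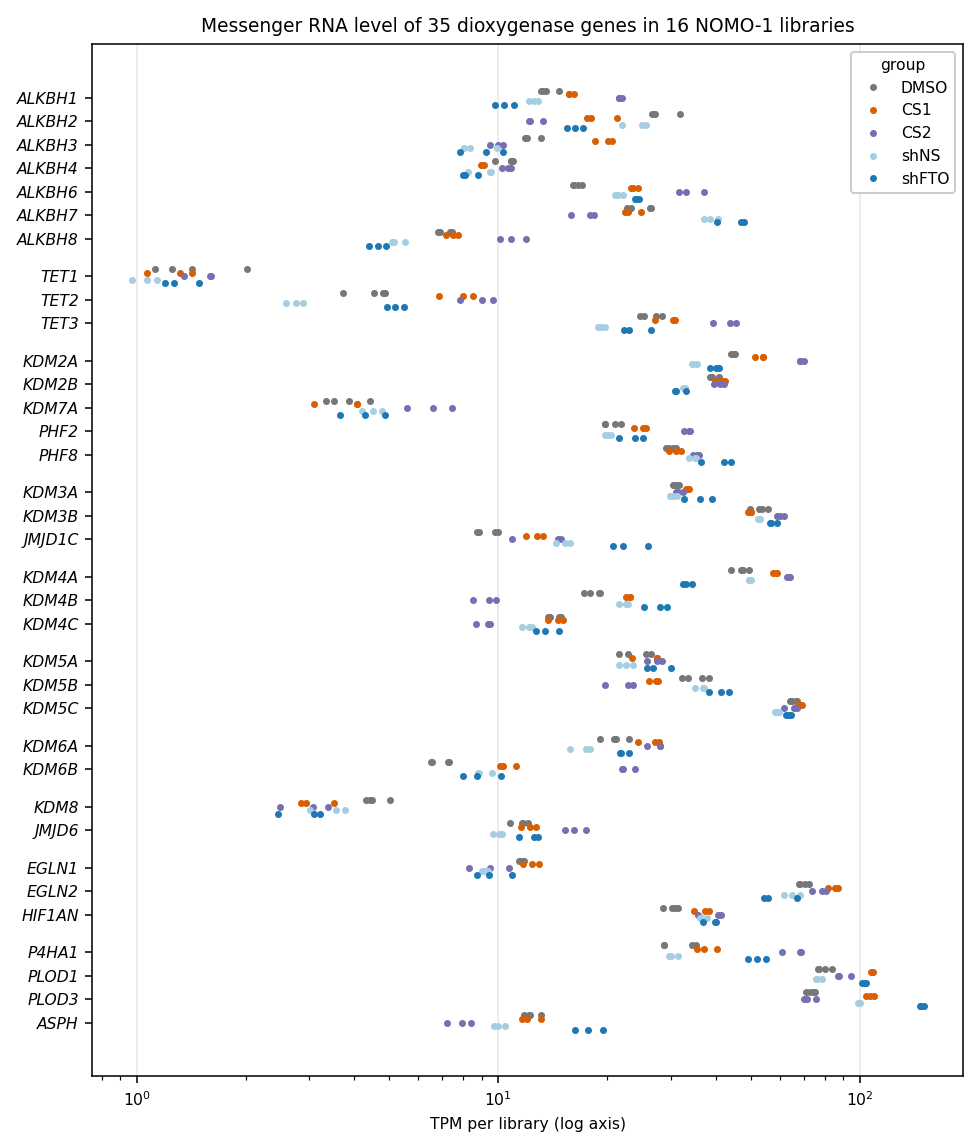
Level of each of the 35 genes tested (TPM, log axis) in every library, by family, with 1 point per library and colour for the group (DMSO n = 4; CS1, CS2, shNS and shFTO n = 3 each). TET1 lay lowest and PLOD1 highest with DMSO (1.45 and 79.3 TPM), and PLOD3 reached 148 TPM with shFTO.

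Changes were common among these genes, and about as common as among all genes. With CS1, 16 members rose and 4 fell, 57.1% of 35 against 51.8% of all genes tested (37.5% higher, 14.3% lower). With CS2, 19 rose and 9 fell, 80.0% against 74.1% (49.5% higher, 24.6% lower). With the FTO hairpin, 20 rose and 3 fell, 65.7% against 56.4% (31.9% higher, 24.5% lower). Changes of at least 0.5 on the log2 scale were called for 5, 15 and 7 members (14.3%, 42.9% and 20.0%), against 14.5%, 41.8% and 19.6% of all genes. The members' median log2 change was 0.11, 0.17 and 0.17, beside 0.09, 0.20 and 0.07 over all genes. CS1 and CS2 were each read against the same DMSO libraries, so their values are given side by side and not as independent results.

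The median of all genes lay above 0 in each comparison, so the split between rises and falls depends on the scaling. Median ratio scaling turned the split among members to 12 higher and 9 lower with CS1, 15 and 14 with CS2, and 15 and 7 with the hairpin. Over all genes the same step moved the split with CS1 from 5605 higher and 2142 lower to 3812 and 4033. With CS2 it moved from 7405 and 3674 to 5353 and 5380, and with the hairpin from 4776 and 3661 to 4016 and 4438. The 3 rescalings referred to below are median scaling, quantile normalization and median ratio scaling. Members' calls lost or gained under them in CS1, CS2 or shFTO against its control are given beside the gene.

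**Figure D2:**
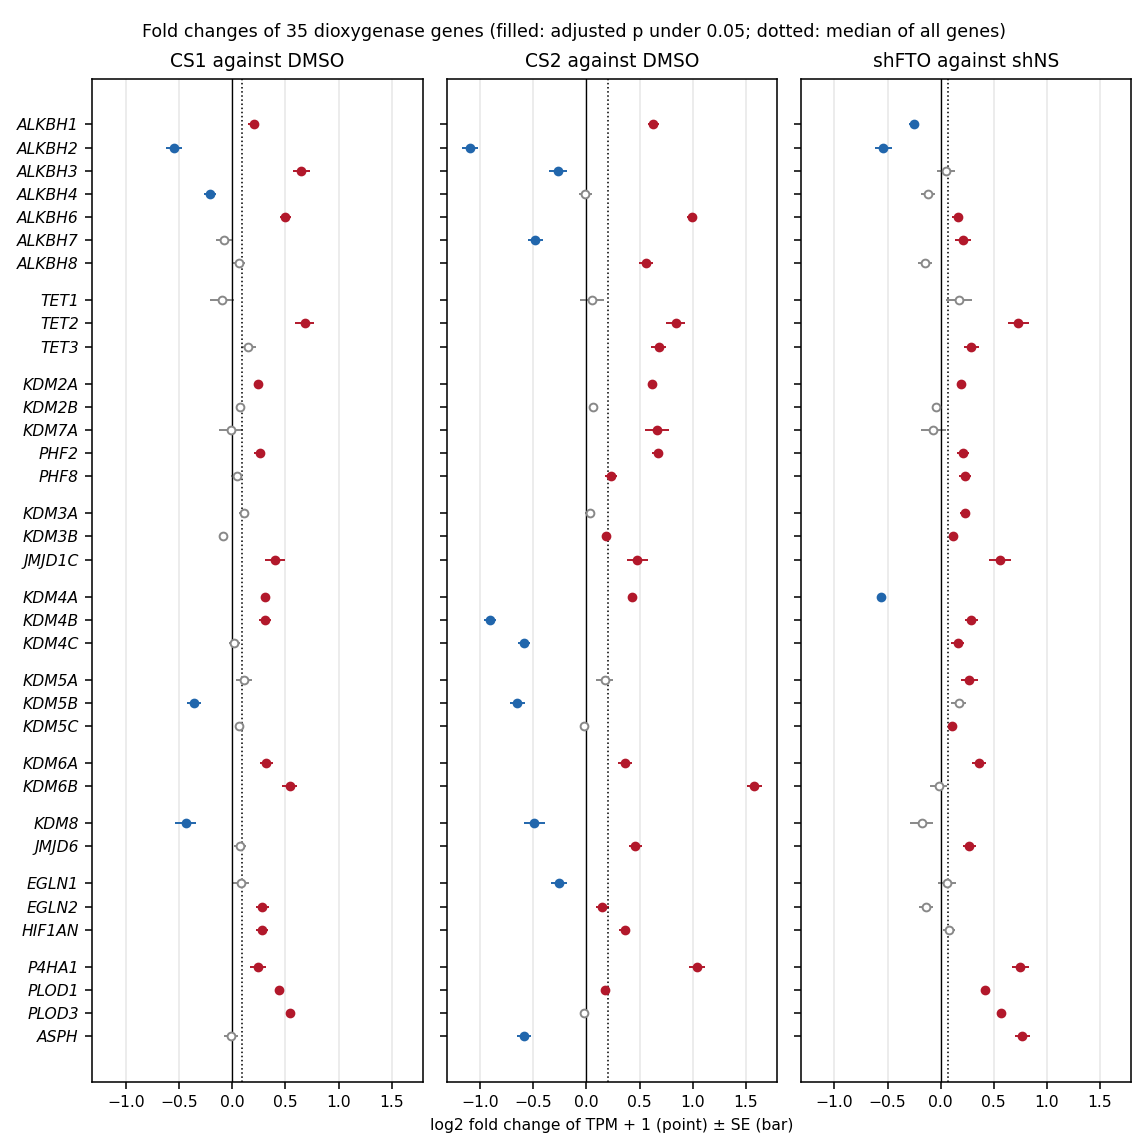
Log2 fold change of TPM + 1 (point) with its standard error (bar) for the 35 genes in CS1 against DMSO, CS2 against DMSO and shFTO against shNS; red points were called higher, blue points lower, open points not called, and the dotted line is the median of all genes. ALKBH2 was the 1 gene called lower in all 3 panels, and KDM6B with CS2 lay farthest to the right, at 1.58.

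Of the 35 genes, 8 were called higher in all 3 comparisons (ALKBH6, JMJD1C, KDM2A, KDM6A, P4HA1, PHF2, PLOD1 and TET2; 22.9%, against 13.2% of all genes) and 1 was called lower in all 3 (ALKBH2; 2.86%, against 4.53%). TET2, JMJD1C and KDM6A among the higher genes, and ALKBH2, kept that pattern in each of the 26 other settings tried, the 3 rescalings included. ALKBH6, P4HA1, PHF2 and PLOD1 lost a call in at least 1 comparison under all 3 rescalings, and KDM2A under median scaling alone. Genes higher in all 3 thus numbered 3, 4 and 4 under median scaling, quantile normalization and median ratio scaling. Genes lower in all 3 numbered 3 (ALKBH2, ALKBH4 and KDM2B), 3 (ALKBH2, ALKBH4 and KDM8) and 2 (ALKBH2 and ALKBH4) in that order. The shares of 13.2% and 4.53% of all genes are from the fit without rescaling, and those under the rescalings are not given here. Whether members differed from all genes after rescaling can therefore not be read from these counts.

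Among the AlkB homologues, several of which repair alkylated bases or modify RNA, ALKBH2 fell throughout. ALKBH2 encodes a nuclear dioxygenase that repairs alkylated bases in double-stranded DNA. Its level was 26.89, 26.67, 27.17 and 31.76 TPM with DMSO, 17.63, 18.02 and 21.26 with CS1, and 12.26, 13.26 and 12.19 with CS2. With shNS it was 25.55, 21.96 and 24.95 TPM, and with shFTO 15.44, 17.11 and 16.32. Every treated library lay below every library of its control, and the CS2 libraries lay lowest of all. The log2 changes were -0.55 (SE 0.076, adjusted p = 2.76e-05), -1.1 (SE 0.076, adjusted p = 4.04e-09) and -0.54 (SE 0.082, adjusted p = 5.04e-05), that is 1.48-fold, 2.24-fold and 1.48-fold lower mean TPM.

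ALKBH3, whose product demethylates alkylated bases in single-stranded DNA and in RNA, went opposite ways under the compounds. It stood at 11.90, 11.82, 13.13 and 12.00 TPM with DMSO, 20.59, 20.09 and 18.56 with CS1, and 10.32, 9.98 and 9.46 with CS2. No library of the 3 groups overlapped another group. The log2 change was 0.65 with CS1 (SE 0.082, adjusted p = 9.81e-06) and -0.27 with CS2 (SE 0.082, adjusted p = 0.00715). Read directly, CS1 exceeded CS2 by 0.93 (SE 0.088, adjusted p = 2.72e-07). With the hairpin, ALKBH3 was 9.12 ± 1.23 TPM against 8.77 ± 1.01 (SD, n = 3 each), and the groups overlapped (log2 change 0.05, adjusted p = 0.662).

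ALKBH6, a homologue with a less settled substrate, rose from 16.5 ± 0.457 TPM (SD, n = 4) to 23.7 ± 0.519 with CS1 and 33.9 ± 2.86 with CS2 (SD, n = 3 each). These are log2 changes of 0.50 and 0.99 (adjusted p = 5.78e-07 and 6.12e-11). With the hairpin it moved from 21.07 to 22.08 TPM up to 23.85 to 24.55, a log2 change of 0.16 (SE 0.051, adjusted p = 0.0158), which was not called under any of the 3 rescalings, without shNS replicate 3 (adjusted p = 0.0577) or without shFTO replicate 1 (adjusted p = 0.0508). ALKBH8, which methylates and hydroxylates wobble uridines of transfer RNA, rose with CS2, from 7.13 ± 0.314 TPM (SD, n = 4) to between 10.09 and 11.95 (3 libraries; log2 change 0.56, adjusted p = 8.58e-07). With the hairpin its change of -0.15 was called under the 3 rescalings (-0.33 to -0.21). ALKBH4 was lower with CS1 (-0.21, adjusted p = 0.00733) and was not called with CS2 (-0.01) or the hairpin (-0.12), but under the 3 rescalings it was also called lower with CS2 (-0.24 to -0.21) and the hairpin (-0.27 to -0.19). ALKBH1, which acts on methylated DNA and transfer RNA, rose from 13.7 ± 0.694 (SD, n = 4) to 21.7 ± 0.242 TPM with CS2 (SD, n = 3) and fell with the hairpin from 12.5 ± 0.357 to 10.4 ± 0.625 (SD, n = 3 each). Its log2 changes were 0.63 and -0.25 (adjusted p = 1.09e-08 and 0.000766), and they differed by 0.88 (SE 0.070, adjusted p = 3.92e-08). With CS1 the change of ALKBH1 was 0.20 (adjusted p = 0.00263), a call lost under all 3 rescalings. Together the 7 AlkB homologues summed to 113 ± 3.46 TPM with DMSO (SD, n = 4), 118 ± 1.75 with CS1, 117 ± 1.22 with CS2, 120 ± 1.68 with shNS and 118 ± 3.03 with shFTO (SD, n = 3 each). Within that sum ALKBH2 passed from 24.9% with DMSO to 10.7% with CS2, and ALKBH6 from 14.6% with DMSO to 20.1% with CS1.

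Of the TET enzymes, which oxidise 5-methylcytosine in DNA, TET2 rose in all 3 comparisons. TET2 was at 4.81, 4.87, 3.73 and 4.54 TPM with DMSO, 8.52, 7.99 and 6.85 with CS1, and 9.65, 9.03 and 7.83 with CS2. The hairpin libraries gave 2.59, 2.89 and 2.76 TPM with shNS and 4.93, 5.50 and 5.17 with shFTO. No treated library overlapped its control, and the shNS libraries lay below all DMSO libraries. The log2 changes were 0.68 (SE 0.091, adjusted p = 1.76e-05), 0.84 (SE 0.091, adjusted p = 6.13e-07) and 0.73 (SE 0.097, adjusted p = 1.55e-05). Under median scaling they were 0.50, 0.61 and 0.64. The responses of TET2 to CS1 and to the hairpin differed by -0.05 (adjusted p = 0.795), and those to CS2 and to the hairpin by 0.12 (adjusted p = 0.47), neither called.

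TET3 was the most abundant TET gene, at 81.7% of the family's TPM with DMSO. It rose from 26.4 ± 1.72 (SD, n = 4) to 42.8 ± 3.16 TPM with CS2 (SD, n = 3; log2 change 0.68, adjusted p = 3.2e-07) and from 19.3 ± 0.396 to 23.9 ± 2.24 with the hairpin (SD, n = 3 each; 0.29, adjusted p = 0.00339). With CS1 it was 29.4 ± 2.06 TPM (SD, n = 3; adjusted p = 0.0789), which passed the threshold without DMSO replicate 1 (adjusted p = 0.0452), without CS1 replicate 3 (0.0284) or without shFTO replicate 2 (0.0499). TET1 lay between 0.97 and 2.02 TPM in the 16 libraries and was not called in any of the 3, though lower with CS1 under median scaling (-0.28, adjusted p = 0.0292). The share of TET2 in the family moved from 13.9% with DMSO to 20.2% with CS1 and 16.6% with CS2, and from 11.9% with shNS to 17.1% with shFTO.

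Bases oxidised by TET enzymes can be removed by base excision repair. Of 7 genes of that pathway 4 rose and 2 fell with CS1 (37.5% and 14.3% of all genes), 5 rose and 2 fell with CS2 (49.5% and 24.6%), and 0 rose (0 also at an unadjusted p under 0.05, limma) and 3 fell with the hairpin (31.9% and 24.5%). Under median ratio scaling the counts were 4 and 2, 4 and 2, and 0 and 4. APEX1, the abasic site endonuclease, fell in each, from 284 ± 5.22 TPM (SD, n = 4) to 223 ± 7.13 with CS1 and 132 ± 3.19 with CS2 (SD, n = 3 each; log2 changes -0.35 and -1.1), and by 0.58 on the log2 scale with the hairpin. XRCC1, a scaffold of single-strand break repair, rose by 0.54 with CS1 and 1.22 with CS2. POLB, the polymerase of short-patch repair, rose by 0.50 and 0.97 with the compounds and fell by 0.28 with the hairpin.

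**Figure D3:**
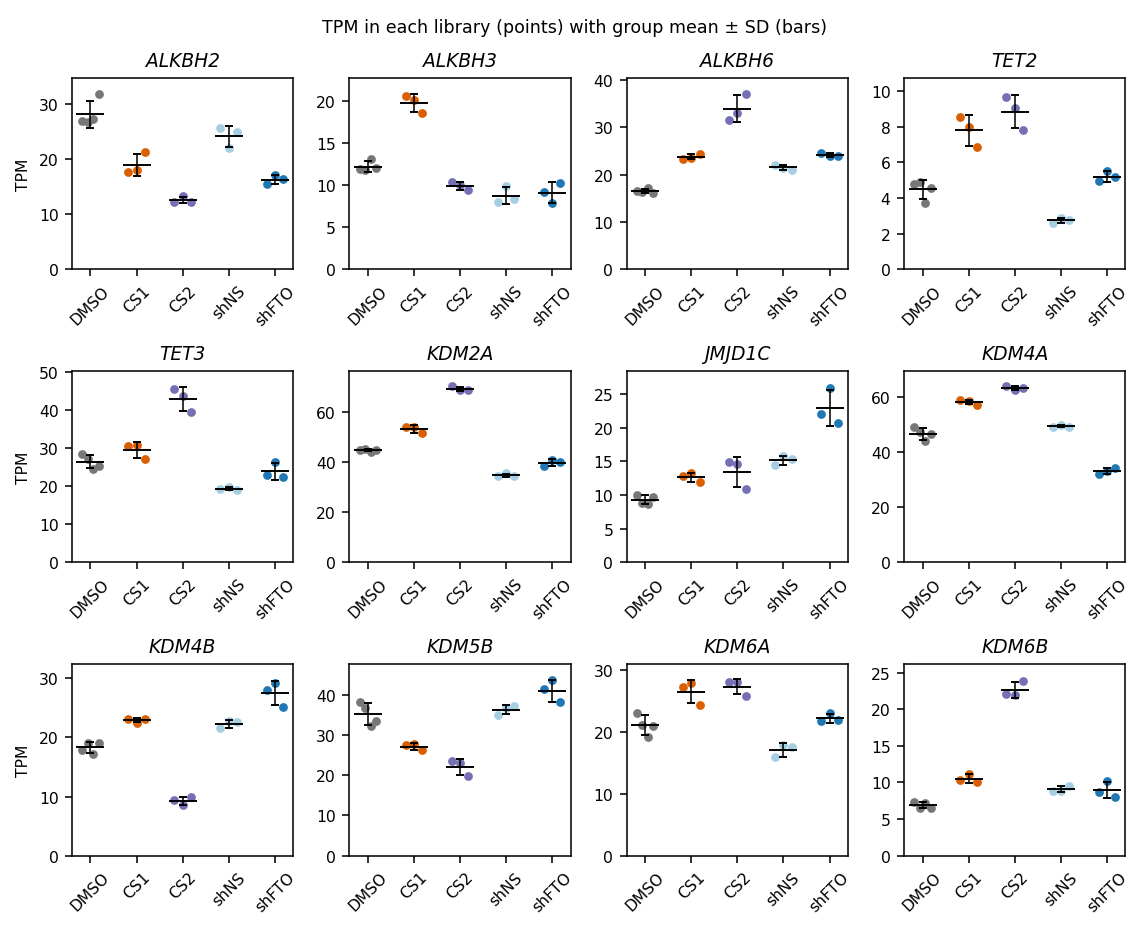
TPM in each library (points) with group mean and SD (bars) for 12 members, with axes starting at 0; DMSO has 4 libraries and the other groups 3. ALKBH2 was lower and TET2, JMJD1C and KDM6A higher in each treated group than in its own control, while KDM4A was higher with the compounds and lower with shFTO.

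The 18 JmjC proteins held the largest single change. KDM6B removes methyl groups from H3K27, the mark laid down by EZH2. It lay at 7.29, 6.57, 7.26 and 6.50 TPM with DMSO, 10.31, 11.18 and 10.09 with CS1, and 22.11, 21.97 and 23.87 with CS2. The 3 groups did not overlap, and the mean with CS2 was 3.28-fold that with DMSO. The log2 changes were 0.54 with CS1 (SE 0.072, adjusted p = 1.52e-05) and 1.58 with CS2 (SE 0.072, adjusted p = 3.33e-11). With shFTO it was 8.73, 10.2 and 8.0 TPM against 8.79, 8.85 and 9.58 with shNS, and was not called (log2 change -0.02, 95% interval -0.18 to 0.15). The response to CS2 exceeded that to the hairpin by 1.60 (SE 0.105, adjusted p = 4.86e-09), and that to CS1 by 0.56 (SE 0.105, adjusted p = 0.000431).

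KDM6A, the X-linked H3K27 demethylase, rose in all 3, from 21.0 ± 1.58 TPM (SD, n = 4) to 26.4 ± 1.88 with CS1 and 27.2 ± 1.26 with CS2, and from 17.1 ± 1.1 to 22.2 ± 0.721 with the hairpin (SD, n = 3 each). On the log2 scale the changes were 0.32, 0.36 and 0.36 (adjusted p = 0.00072, 0.000108 and 0.00037), and under median scaling 0.14, 0.13 and 0.28. Its responses to the compounds and to the hairpin differed by -0.04 and 0.00 (adjusted p = 0.723 and 0.994). KDM6B thus made up 24.8% of the pair's TPM with DMSO, 28.5% with CS1 and 45.4% with CS2, and 34.7% with shNS and 28.8% with shFTO. Of the 10 polycomb genes followed beside them, 5 rose and 2 fell with CS1 (37.5% and 14.3% of all genes). With CS2, 8 rose and 0 fell (49.5% and 24.6%), and with the hairpin 2 rose and 4 fell (31.9% and 24.5%). EZH2, the H3K27 methyltransferase, rose from 102 ± 2.37 TPM (SD, n = 4) to 346 ± 17.1 with CS2 (SD, n = 3; log2 change 1.75, adjusted p = 2.09e-12) and fell by 0.38 with the hairpin (adjusted p = 0.000146). Under median ratio scaling the polycomb counts were 2 higher and 3 lower, 4 and 1, and 2 and 4; the 0 with CS2 was 1 at an unadjusted p under 0.05 (limma).

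The KDM4 genes encode demethylases of H3K9 and H3K36. KDM4A was at 49.28, 47.36, 44.02 and 46.83 TPM with DMSO, 58.95, 58.76 and 57.42 with CS1, and 63.99, 62.65 and 63.59 with CS2. In the hairpin cells it was 49.43, 50.06 and 49.39 TPM with shNS and 32.32, 33.13 and 34.41 with shFTO. All libraries with a compound lay above the DMSO libraries, and all shFTO libraries below the shNS libraries. In log2 terms the changes were 0.31 (adjusted p = 4.36e-06), 0.43 (adjusted p = 3.72e-08) and -0.56 (adjusted p = 2.06e-08). The compound response exceeded the hairpin response by 0.87 with CS1 (SE 0.053, adjusted p = 1.18e-08) and by 0.99 with CS2 (SE 0.053, adjusted p = 5.87e-10), and each direction kept its call under the 3 rescalings.

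KDM4B was at 17.96, 19.02, 17.24 and 19.11 TPM with DMSO, 23.17, 22.51 and 23.12 with CS1, and 9.44, 8.52 and 9.86 with CS2. In the hairpin cells it rose from 22.3 ± 0.624 to 27.5 ± 2.06 TPM (SD, n = 3 each; log2 change 0.29, adjusted p = 0.000975). The fall with CS2 was -0.91 (SE 0.057, adjusted p = 1.25e-09). The rise with CS1 was 0.31 (adjusted p = 0.00036), a call lost under median scaling and quantile normalization. CS1 exceeded CS2 by 1.22 (SE 0.061, adjusted p = 3.18e-10). KDM4C fell with CS2 from 14.3 ± 0.586 (SD, n = 4) to 9.18 ± 0.430 TPM (SD, n = 3; log2 change -0.59, adjusted p = 1.32e-07), with no call with CS1 (0.02; called lower under the 3 rescalings, -0.18 to -0.11). Its rise of 0.16 with the hairpin (adjusted p = 0.0313) was lost under the 3 rescalings and without any of 4 hairpin libraries (shNS replicates 1 and 2, shFTO replicates 1 and 2; adjusted p = 0.0568 to 0.155). By share, KDM4A held 58.9% of the family's TPM with DMSO and 77.5% with CS2, against 59.1% with shNS and 44.8% with shFTO.

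KDM5B, an H3K4 demethylase, fell with both compounds, from 35.2 ± 2.73 TPM (SD, n = 4) to 27.0 ± 0.826 with CS1 and 22.1 ± 2.03 with CS2 (SD, n = 3 each). These falls were -0.36 (SE 0.067, adjusted p = 0.000343) and -0.65 (SE 0.067, adjusted p = 3.86e-07). With the hairpin the libraries were 41.25, 43.54 and 38.12 TPM against 34.95, 36.74 and 37.11 with shNS, all higher, with a log2 change of 0.17 near the threshold (adjusted p = 0.0564). That value fell under 0.05 in 8 of the other settings, among them the fit of the 6 hairpin libraries alone (0.0364) and the one without shFTO replicate 3 (0.0247). The difference between responses was called for CS1 (-0.53, adjusted p = 0.000388) and CS2 (-0.82, adjusted p = 3.16e-06). KDM5A and KDM5C were called higher with the hairpin, by 0.27 and 0.11 (adjusted p = 0.0105 and 0.0125). Neither was called with a compound, but under the 3 rescalings KDM5C was called lower with CS1 (-0.12 to -0.07, adjusted p = 0.00238 to 0.0458) and with CS2 (-0.25 in each, adjusted p = 6.38e-07 to 1.6e-06). The call of KDM5A with the hairpin was lost without shFTO replicate 2 (adjusted p = 0.0578) and that of KDM5C under median and median ratio scaling. With CS2, KDM5A (0.17, adjusted p = 0.0583) passed the threshold without any of 5 libraries (DMSO replicates 1 and 2, CS1 replicate 3, CS2 replicate 3 and shFTO replicate 2; adjusted p = 0.0229 to 0.0487).

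In the KDM2 and KDM7 group, whose members act on H3K36, H3K9, H3K27 or H4K20, 0 of 5 genes were called lower in the 3 comparisons by limma. Over all genes 14.3%, 24.6% and 24.5% were called lower with CS1, CS2 and the hairpin. The TET, KDM3 and KDM6 families also had 0, and nothing is read from counts this small. At an unadjusted p under 0.05 (limma) the KDM2 and KDM7 group also had 0 lower, but under median scaling 2, 1 and 1 were called lower. KDM2A rose from 44.7 ± 0.458 TPM (SD, n = 4) to 53.1 ± 1.47 with CS1 and 69.0 ± 0.953 with CS2, and from 34.8 ± 0.601 to 39.7 ± 1.23 with the hairpin (SD, n = 3 each). Its log2 changes were 0.24, 0.62 and 0.19 (adjusted p = 1.05e-05, 9.99e-11 and 0.000205), and the call with CS1 was lost under median scaling (0.07, adjusted p = 0.0573). PHF2 rose by 0.26, 0.67 and 0.21 (adjusted p = 0.000687, 1.33e-08 and 0.00433), although with CS1 the call was lost under the 3 rescalings, and with the hairpin under median scaling. PHF8 was called higher with CS2 and with the hairpin (0.23 in both, adjusted p = 0.00121 and 0.00319). Its call with CS2 was lost under the 3 rescalings (-0.00 to 0.01), and with CS1 it was called lower under median scaling alone (-0.14). KDM7A rose with CS2, from 3.78 ± 0.480 (SD, n = 4) to 6.55 ± 0.927 TPM (SD, n = 3; log2 change 0.66, adjusted p = 7.5e-05), and was not called in the other two, though lower with the hairpin under quantile normalization (-0.25, adjusted p = 0.0419). KDM2B, which brings a polycomb complex to CpG islands, was called in none, with log2 changes of 0.07, 0.06 and -0.04. It was called lower with CS2 under the 3 rescalings (-0.17 to -0.16), with CS1 under median scaling (-0.11), and with the hairpin under median and median ratio scaling (-0.13 and -0.12).

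JMJD1C, the third KDM3 gene, is known as a factor that leukaemia cells depend on. It was at 9.97, 8.86, 8.74 and 9.76 TPM with DMSO, 12.77, 13.29 and 11.89 with CS1, and 14.90, 14.64 and 10.88 with CS2. In the hairpin cells it was 14.45, 15.79 and 15.30 TPM with shNS and 22.08, 25.97 and 20.75 with shFTO. CS2 replicate 3 lay below the other CS2 libraries and still above every DMSO library. The log2 changes were 0.40 (adjusted p = 0.00272), 0.48 (adjusted p = 0.000388) and 0.56 (adjusted p = 0.000297). KDM3A and KDM3B, demethylases of H3K9, changed by less: KDM3A was called with the hairpin (0.23, adjusted p = 0.0013), and KDM3B with CS2 (0.18, adjusted p = 0.000256) and the hairpin (0.12, adjusted p = 0.0127). For KDM3B the value with CS2 was -0.05 under each rescaling, and the call with the hairpin was lost under median and median ratio scaling and without shFTO replicate 2 (adjusted p = 0.0561). With CS1, KDM3B (-0.09) was called lower under the 3 rescalings (-0.26 to -0.22, adjusted p = 2.42e-05 to 0.000117) and without DMSO replicate 3 or shFTO replicate 3 (adjusted p = 0.0105 and 0.0496), and KDM3A (0.11) higher without shFTO replicate 2 or 3 (0.026 and 0.0136). With CS2, KDM3A (0.03) was called lower under the 3 rescalings (-0.20 to -0.19). JMJD6 rose with CS2 and with the hairpin (0.46 and 0.27). KDM8 fell with the compounds from 4.55 ± 0.314 TPM (SD, n = 4) to 3.10 ± 0.369 with CS1 and 2.98 ± 0.447 with CS2 (SD, n = 3 each; log2 changes -0.44 and -0.49), and with the hairpin its -0.18 was called under quantile normalization (-0.37). Of 14 genes for H3K4 and H3K9 methyltransferases and for subunits of their complexes, 2 rose and 3 fell with CS1 (37.5% and 14.3% of all genes). With CS2, 8 rose and 4 fell (49.5% and 24.6%), and with the hairpin 4 rose and 7 fell (31.9% and 24.5%). Median ratio scaling made these counts 1 and 8, 4 and 4, and 2 and 7.

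The 3 HIF hydroxylases tested were all called with CS2 (74.1% of all genes were), 2 with CS1 (51.8%) and 0 with the hairpin (56.4%), and nothing is read from shares of 3 genes. EGLN1, EGLN2 and EGLN3 mark HIF-alpha subunits for degradation by VHL, and HIF1AN blocks their transactivation. EGLN2, the most abundant of them, rose with CS1 from 69.7 ± 1.94 (SD, n = 4) to 84.6 ± 2.71 TPM and was 77.7 ± 3.61 with CS2 (SD, n = 3 each; log2 changes 0.28 and 0.15, adjusted p = 0.0016 and 0.0339). The call with CS1 was lost under median and median ratio scaling. The one with CS2 turned to -0.08 to -0.07 under the rescalings, with no call, and was also lost without DMSO replicate 3 or 4 or CS2 replicate 1 or 2 (adjusted p = 0.0679 to 0.125). HIF1AN rose from 30.2 ± 1.24 (SD, n = 4) to 36.7 ± 1.73 and 39.2 ± 3.00 TPM (SD, n = 3 each; 0.28 and 0.36). EGLN1 fell with CS2 from 11.6 ± 0.170 (SD, n = 4) to 9.52 ± 1.2 TPM (SD, n = 3; -0.26, adjusted p = 0.00535). With the hairpin 0 of these 3 genes were called by limma, with log2 changes of 0.06 (EGLN1), -0.14 (EGLN2) and 0.08 (HIF1AN); their lowest adjusted p was 0.0766, and 1 of the 3 (EGLN2) was lower at an unadjusted p under 0.05. Under median and median ratio scaling 1 was called lower. EGLN2 was at 55.67, 54.13 and 66.83 TPM with shFTO and 68.35, 64.86 and 61.55 with shNS, and without shFTO replicate 3 it was called lower (-0.24, adjusted p = 0.000908).

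Of 9 genes for HIF subunits and the VHL complex that were tested, 3 rose and 1 fell with CS1 (37.5% and 14.3% of all genes). With CS2, 6 rose and 0 fell (49.5% and 24.6%), the 0 also at an unadjusted p under 0.05 (limma). With the hairpin 4 rose and 4 fell (31.9% and 24.5%). Under median ratio scaling these counts were 3 and 5, 3 and 3, and 3 and 4. EPAS1, which encodes HIF-2 alpha, went from 19.9 ± 0.554 TPM (SD, n = 4) to 47.6 ± 2.94 with CS1 and 56.1 ± 2.42 with CS2 (SD, n = 3 each), with log2 changes of 1.22, 1.45 and, with the hairpin, 0.81. HIF1A rose by 0.67, 0.75 and 0.34, and ARNT, their partner, by 0.26 (not called under median scaling), 0.79 and 0.45. Of 15 HIF target genes tested out of 20 listed, 8 rose and 2 fell with CS1 (37.5% and 14.3% of all genes). With CS2, 12 rose and 2 fell (49.5% and 24.6%), and with the hairpin 6 rose and 3 fell (31.9% and 24.5%). Under median ratio scaling the counts were 7 and 4, 8 and 2, and 5 and 5. NDRG1 rose by 0.73 and 1.23 with the compounds and fell by 1.05 with the hairpin, and VEGFA rose by 0.76 and 1.02 with the compounds. With the hairpin DDIT4 also fell, by 0.62, while INSIG2 rose by 1.02 and HK2 by 0.28. CA9, a sensitive target, was at 0 in every library.

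All 4 hydroxylases of the endoplasmic reticulum that were tested rose with the FTO hairpin (P4HA1, PLOD1, PLOD3 and ASPH), also under the 3 rescalings. The 3 KDM3 genes did so too as reported, beside 31.9% of all genes. P4HA1 is the catalytic subunit of collagen prolyl 4-hydroxylase. It lay at 30.11, 31.42 and 29.58 TPM with shNS and 51.83, 55.02 and 48.90 with shFTO, and at 35.15, 34.39, 28.73 and 28.68 with DMSO, 36.93, 40.28 and 35.42 with CS1 and 68.84, 68.36 and 60.84 with CS2. The log2 changes were 0.75 with the hairpin (SE 0.081, adjusted p = 1.75e-06), 1.04 with CS2 (SE 0.076, adjusted p = 6.89e-09) and 0.24 with CS1 (SE 0.076, adjusted p = 0.0153). The CS1 libraries lay just above the highest DMSO library, and that call was lost under the 3 rescalings and without CS1 replicate 2 (0.19, adjusted p = 0.0822).

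PLOD3, a lysyl hydroxylase that also adds glucose and galactose to collagen, was at 98.73, 99.61 and 99.75 TPM with shNS and 149.95, 147.05 and 146.09 with shFTO. With DMSO it was 71.06, 72.56, 75.16 and 74.04 TPM, with CS1 106.55, 109.04 and 104.20, and with CS2 70.10, 71.31 and 75.39. PLOD3 rose without overlap with CS1 and with the hairpin, by 0.54 (SE 0.031, adjusted p = 3.1e-09) and 0.57 (SE 0.033, adjusted p = 3.64e-09), while CS2 overlapped DMSO (-0.02, 95% interval -0.08 to 0.05; called lower at -0.25 under median and median ratio scaling and -0.24 under quantile normalization). PLOD1 rose by 0.44 with CS1 and 0.42 with the hairpin (adjusted p = 1.22e-07 and 4.39e-07). Its rise of 0.17 with CS2 (adjusted p = 0.00049) turned to -0.06 to -0.04 under the rescalings, with no call. ASPH hydroxylates aspartate and asparagine in epidermal growth factor-like domains. It rose with the hairpin from 9.98, 10.44 and 9.70 to 16.27, 19.46 and 17.67 TPM (log2 change 0.77, SE 0.071, adjusted p = 4.27e-07). With CS2 it fell from 12.3 ± 0.581 (SD, n = 4) to 7.85 ± 0.594 TPM (SD, n = 3; -0.59, adjusted p = 9.81e-07), and its change of -0.01 with CS1 was called lower under the 3 rescalings (-0.19 to -0.13). The difference of -1.36 (SE 0.097, adjusted p = 1.3e-08) was the largest in size among members for CS2 against the hairpin after that of KDM6B. As a sum, the family passed from 197 ± 4.81 TPM with DMSO (SD, n = 4) to 265 ± 4.92 with CS1 and 236 ± 2.08 with CS2, and from 217 ± 2.84 with shNS to 321 ± 4.21 with shFTO (SD, n = 3 each). These family sums are of TPM without rescaling. Under the 3 rescalings P4HA1 stayed higher with CS2, while PLOD3 and ASPH were called lower and PLOD1 was not called.

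The partners of these enzymes in collagen modification that are named here rose with them under the hairpin. They were picked by small adjusted p (limma) in these same data, so their rise is no independent result. P3H1, a further 2-oxoglutarate enzyme, forms the collagen prolyl 3-hydroxylase complex with CRTAP and PPIB, and P4HB is the second subunit of prolyl 4-hydroxylase. P3H1 was at 71.45, 75.59 and 74.96 TPM with shNS and 161.70, 168.92 and 156.82 with shFTO (log2 change 1.12, SE 0.036, adjusted p = 7.38e-12). CRTAP, PPIB and P4HB rose by 0.86, 1.02 and 0.73 (adjusted p = 2.17e-09, 1.14e-10 and 8.04e-10). With CS2 the last 3 of these fell, by 0.36, 1.07 and 0.47 on the log2 scale, and the responses to CS2 and the hairpin differed by -1.22, -2.09 and -1.2; the fall of P4HB was -0.70 under median ratio scaling and -0.01 under quantile normalization. P3H1 changed by 0.17 with CS1 and 0.13 with CS2 (adjusted p = 0.000639 and 0.00319), values that became 0.04 and -0.10 under median ratio scaling. Of the 15 collagen and collagen folding genes listed, 8 passed the filter. With the hairpin 5 of these rose and 2 fell (31.9% and 24.5% of all genes). Among those that passed, COL1A1 and COL6A1 were at 0.627 and 0.880 TPM with shNS, and COL4A2 at 32.2 TPM, so the folding genes stood far above the collagen genes.

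**Figure D4:**
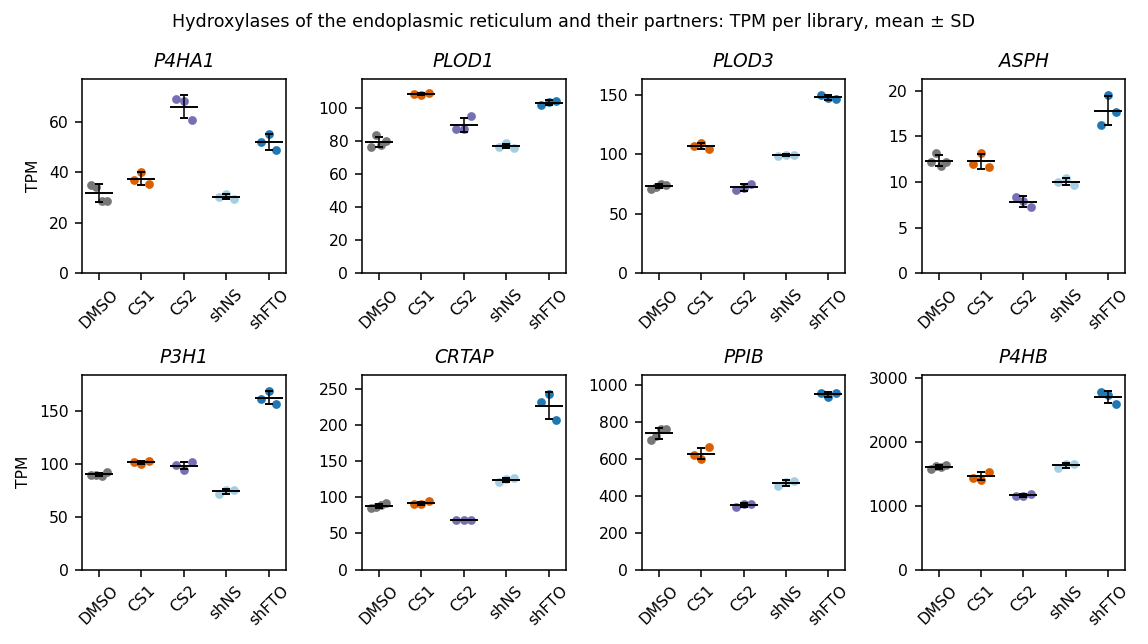
TPM in each library (points) with group mean and SD (bars) for the 4 endoplasmic reticulum hydroxylases tested and 4 partner genes, with axes starting at 0. All 8 were higher with shFTO than with shNS, whereas with CS2 P4HA1 rose to 66.0 TPM and ASPH, CRTAP, PPIB and P4HB fell against DMSO (under quantile normalization P4HB changed by -0.01).

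Comparing the compounds directly, 10 members were higher with CS1 and 14 higher with CS2, 68.6% of 35 against 66.6% of all genes (26.2% higher and 40.4% lower with CS1); the doses differ, so this reads 2 conditions and not 2 structures. KDM4B (1.22), ALKBH3 (0.93), KDM4C (0.60), ASPH (0.58), ALKBH2 (0.55) and PLOD3 (0.55) were at least 0.5 higher with CS1 on the log2 scale. KDM6B (-1.04), P4HA1 (-0.80), KDM7A (-0.67) and TET3 (-0.53) were lower by as much. These 10 genes are 28.6% of the 35, beside 29.9% of all genes that differed by at least 0.5. TET2 did not differ at this precision (-0.16, 95% interval -0.37 to 0.04), nor did JMJD1C (-0.07, -0.29 to 0.15) or KDM6A (-0.04, -0.19 to 0.10), and intervals of this width do not show that the compounds act alike on them.

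Set against the hairpin, the response differed for 12 members with CS1 (34.3%, against 49.4% of all genes) and 24 with CS2 (68.6%, against 63.4%). With CS1 the response was higher for 7 and lower for 5 (all genes 31.0% and 18.3%), and with CS2 for 12 and 12 (39.8% and 23.7%). Differences of at least 0.5 were called for 6 members with CS1 (17.1%, against 23.6%) and 13 with CS2 (37.1%, against 42.0%). Calls in opposite directions were made for 2 members with CS1, ALKBH1 and KDM4A (5.71% of 35, against 11.0% of all genes), and for 6 with CS2: ALKBH1, ALKBH7, KDM4A, KDM4B, KDM4C and ASPH (17.1%, against 16.8%). ALKBH7, a mitochondrial protein, fell by 0.48 with CS2 (adjusted p = 2.49e-05) and rose by 0.21 with the hairpin (adjusted p = 0.0337, groups overlapping), a rise lost under median and median ratio scaling and without shNS replicate 1 or 3 or shFTO replicate 1 or 2 (adjusted p = 0.0759 to 0.132); its responses differed by -0.69 (adjusted p = 4.33e-05). With CS1 its change of -0.08 was called lower under the 3 rescalings (-0.25 to -0.21).

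A list of 23 further 2-oxoglutarate dioxygenases outside the 38 gave 17 genes tested. With CS1, 5 rose and 5 fell (37.5% and 14.3% of all genes). With CS2, 5 rose and 6 fell (49.5% and 24.6%), and with the hairpin 5 rose and 5 fell (31.9% and 24.5%). Under median ratio scaling these counts were 2 and 6, 3 and 9, and 5 and 7. PHYH, the peroxisomal phytanoyl-CoA hydroxylase, rose in all 3 (0.78, 1.01 and 0.47), also under the 3 rescalings. The ribosomal oxygenase RIOX2, under its older symbol MINA, fell with both compounds (-0.61 and -0.72), and RIOX1, as C14orf169, with the hairpin (-0.97).

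Some of these values rest on genes whose exons overlap a neighbour in GENCODE release 29 (GRCh38), and whether counting used strand is not given in the sources used here. KDM4A (chromosome 1, 43650158 to 43705515, plus strand) shares 8.97% of its exonic bases with KDM4A-AS1 on the other strand, at 7.54 TPM with DMSO, and 40.2% with the gene model AL451062.3 on its own strand. KDM4A-AS1 changed by -0.15, 0.13 and -0.12, against 0.31, 0.43 and -0.56 for KDM4A. PLOD3 (chromosome 7, 101205977 to 101218420, minus strand) shares 7.56% with ZNHIT1, which changed by 0.12, -0.37 and -0.23 against 0.54, -0.02 and 0.57. ALKBH4 shares 25.3% with ORAI2, ALKBH6 25.1% with AC002116.1, and EGLN2 30.6% with the readthrough gene RAB4B-EGLN2. KDM8 shares 14.5% with AC109449.1. Abundant neighbours on the other strand were ZNHIT1 (70.8 TPM with DMSO), NDUFB8 (220 TPM), which takes 2.33% of HIF1AN, and RNF34 (51.7 TPM), which takes 3.22% of KDM2B. How reads were divided between these pairs was not tested. The values of members with an overlap, those named here included, are uncertain to that extent.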

How the data were processed

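Poly(A) RNA of 16 NOMO-1 libraries was read from 1 deposited table of TPM, made by the authors. RSEM 1.2.31 and the build GRCh38 are named in the submitters' processing notes, while the aligner and the gene annotation were not given in the sources used here. Without read counts the depth is unknown, and no counting error is given. Groups came from the sample titles. The 38 genes were matched by symbol, and members and lists were chosen with earlier results of these data known. Genes that reached 1 TPM in 3 or more libraries (14951) entered the test as log2(TPM + 1), a scale that understates changes of low genes. Limma 3.58.1 (R 4.3.3; lmFit, eBayes with trend) fitted 5 group means to all 16 libraries; tests were two-sided and adjusted by Benjamini-Hochberg over all genes within each of 6 comparisons, with a threshold of 0.05 for a call. The script was tested on simulated data. Members were given in full where called with a log2 change of at least 0.5 or in all 3 comparisons, and from other lists up to 4 genes with the smallest adjusted p. Alternatives were other pseudocounts (0.1, 0.5), filters, scalings, variance settings, a replicate block and leaving out each library; median ratio scaling was added after seeing the data. Replicate numbers were not taken to pair the samples. Promoters came from RefSeq, gene models from GENCODE.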

Additional observations from a re-analysis of the deposited data

Results flagged for a closer look

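In 5 of 38 genes examined (37 members with any spread, and FTO), 1 of the 4 DMSO libraries lay far from the other 3 relative to the range; chance alone gives about 1 in 20 such cases. ALKBH2 was at 31.76 TPM in DMSO replicate 4 and at 26.67 to 27.17 in the others, so the control of the gene that fell in all 3 comparisons was highest in that library. In DMSO replicate 3, ALKBH3 was at 13.13 TPM (others 11.82 to 12.00), ALKBH4 at 9.79 (others 10.82 to 11.01), KDM2A at 43.98 (others 44.83 to 44.99) and EGLN3 at 0.03 (others 0.00). With the others at 0.00, any value of EGLN3 above 0 would be flagged, so the rate of 1 in 20 does not apply to it. No call named for ALKBH2, ALKBH3 or KDM2A was lost when either library was left out.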

How the results depend on the processing

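Among 312 recomputed counts of members called, 298 stayed within 1.5 times the reported count, and all but 1 of the 14 that did not came from rescaling. Members lower with CS1 numbered 4 as reported, 12 under median scaling and 9 under both quantile normalization and median ratio scaling, and members higher with CS1 16 and, under median scaling, 10. Members lower with CS2 went from 9 to 14 and with the hairpin from 3 to 7 under each of the 3 rescalings. Members lower in the CS1 response minus the hairpin response went from 5 to 12, 14 and 10 under median, quantile and median ratio scaling, and to 8 without shFTO replicate 3. Over all genes the split with CS1 became 3201 higher and 5246 lower under median scaling and 3718 and 4267 under quantile normalization, with CS2 5199 and 5667, and 5395 and 5346, and with the hairpin 3759 and 4612, and 4069 and 4398. Leaving out each library gave 15 to 18 higher and 4 to 5 lower with CS1, 18 to 20 and 9 with CS2, 16 to 21 and 3 to 4 with the hairpin, 10 to 11 and 14 to 16 for CS1 against CS2, 6 to 8 and 4 to 8 for CS1 minus hairpin, and 11 to 13 and 10 to 13 for CS2 minus hairpin. Of 1638 recomputed values of named members 1562 kept their direction and call, 27 lost a call, 22 gained one and 27 changed sign. The sign changes under median, quantile and median ratio scaling in that order were ALKBH8 with CS1 (-0.12, -0.11, -0.06), KDM4C with CS1 (-0.16, -0.18, -0.11), PLOD1 with CS2 (-0.05, -0.04, -0.06) and ALKBH3 with the hairpin (-0.04, -0.08, -0.02), and TET3 with CS1 under median scaling (-0.02). When 1 library was left out they were KDM4C with CS1 (-0.01 to -0.00), KDM7A with CS1 (0.05 to 0.09), ASPH with CS1 (0.01 to 0.03), PLOD3 with CS2 (0.00), and with the hairpin ALKBH3 (range over libraries left out -0.03 to 0.14), KDM7A (-0.15 to 0.02) and KDM6B (up to 0.02 and 0.05). Among these members KDM4C with CS1 was called lower under the 3 rescalings, and none of their other sign changes was called. Members not given in full are outside these counts, and some changed sign with a call. Under the 3 rescalings these were KDM5C with CS1 (-0.12 to -0.07), KDM2B with CS2 (-0.17 to -0.16) and KDM3A with CS2 (-0.20 to -0.19). With CS1, KDM2B (-0.11) and PHF8 (-0.14) were called lower under median scaling alone. The cause of the sign changes was not tested. With the replicate number as a block, in which DMSO replicate 4 stood alone and so added nothing, 21 members were higher and 3 lower with the hairpin, 16 and 4 with CS1, 19 and 9 with CS2, and KDM4C with CS1 was -0.00. Same-numbered libraries of different groups correlated in their deviations at -0.0556 to 0.219 over 30 pairs (3 above 0.1). Other pairs correlated at -0.179 to 0.136 over 72 pairs (3 above 0.1). The same-numbered pairs above 0.1 lay among DMSO, CS1 and CS2 libraries (0.101 to 0.219). The numbers were not taken to pair samples, but what same-numbered libraries shared is not given in the sources used here. Depth is unknown for TPM, and values near 1 TPM, such as TET1, are the least precise.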
